A study of Mus musculus with 13 samples.

Results

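The urogenital sinus is the part of the embryonic lower urinary tract that lies between the bladder and the urethra. Here 4 sinus arrays of embryonic day 14 mice were set against 3 arrays of RNA from whole newborn mice, 7 of the 13 arrays in all. The arrays were chosen by their labels, and no measured value entered the choice. The sinus arrays (replicates 1, 2, 6 and 7) came from FVB/N females mated to males that carry the SMGA/EGFP transgene. In that transgene the promoter of Actg2, the smooth muscle gamma-actin gene, drives the fluorescent protein EGFP. The sinus was cut out as the stretch with no fluorescence, and its samples were not pooled. Replicates 1 and 2 were at Theiler stage 21, replicates 6 and 7 at Theiler stage 22, and the sex of the embryos is given as unknown. The newborn reference was wild-type FVB/N at postnatal day 1 (Theiler stage 27), a pool of 4 male and 4 female whole animals with nothing dissected. Its 3 arrays repeat that pool, and their mean entered the test as 1 sample. No treatment is listed for either group. Tissue, age, transgene and pooling all differ between the sinus and the newborn body, so their parts in a difference cannot be told apart.

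The sinus is an endodermal tube wrapped in mesenchyme. Its epithelium later forms the prostate and part of the urethra and vagina, and signals pass both ways between epithelium and mesenchyme while these organs are laid down. Sonic hedgehog from the epithelium acts on the mesenchyme. Posterior Hox genes, retinoic acid, Wnt and BMP signals pattern the tissue along the body axis. A newborn body, by contrast, holds differentiated muscle, skin, liver, bone, brain and gut.

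Values below are log2 intensities of 1 probe set per gene, and differences are sinus minus reference on the log2 scale with the standard error (SE) of the fit. Of 15019 genes tested, limma called 694 higher in the sinus (4.62%) and 1382 lower (9.2%) at an adjusted p under 0.05. The 4 sinus arrays lay wholly above the 3 reference arrays for 1988 genes (13.2%) and wholly below them for 2811 (18.7%). The median difference was 2.04 over the genes called higher and -3.50 over those called lower, against -0.01 over all genes tested. Differences beyond 4 log2 units were found for 16 genes called higher and 533 called lower. The count of higher calls moved with the arrays and scaling used: it was 189 with the sinus and reference arrays alone in the fit, 408 with the arrays centred on their medians, 451 without urogenital sinus replicate 6 and 1058 without urogenital sinus replicate 1. In whole tissue, fewer cells of a type and less RNA per cell cannot be told apart.

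Across all probe sets, sinus arrays correlated with one another at 0.877 to 0.965, reference arrays with one another at 0.889 to 0.899, and sinus with reference arrays at 0.777 to 0.834. Median intensity was 259 to 389 on the sinus arrays and 278 to 454 on the reference arrays, and the mean log2 signal of the spike-ins was 11.90 to 13.70 on the sinus arrays and 13.20 to 14.17 on the reference arrays. Of the sinus arrays, replicate 1 was the least like the others, at a mean correlation of 0.89. The sample titles come in 3 formats, whose meaning the labels do not give. One format holds 3 sinus arrays and 1 reference array, and another 1 of each. Within both, 687 of the 694 higher and 1379 of the 1382 lower calls kept their direction. For the 657 higher and 1371 lower calls whose arrays did not overlap, this was fixed in advance. The remaining format holds all 3 urethra arrays, 1 reference array and no sinus array. Between sinus and urethra, region and title format therefore cannot be told apart.

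Actg2, whose reporter set the dissection, stood at 8.99, 9.31, 7.99 and 10.77 on sinus replicates 1, 2, 6 and 7, against 13.13, 13.64 and 14.01 on the reference arrays. Every sinus array lay under every reference array, with a difference of -4.33 (SE 0.79, adjusted p = 0.00484, 20.1-fold lower). Its direction is not independent of the dissection. The probe set for Actg2 carries a suffix that marks probes shared between related transcripts.

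Adamts20, Hoxd13 and Hbb-y were among the genes with the largest differences; where reference arrays lie at or near the floor, the order of such genes is set partly by the floor. Adamts20, a secreted metalloprotease, stood at 13.31, 12.59, 12.56 and 12.71 in the sinus and at 7.56, 6.35 and 5.65 in the reference, where 5.65 is the floor set under all values. The groups were far apart, by 6.27 (SE 0.38, adjusted p = 2.70e-06). Dach2, a nuclear cofactor of Eya proteins and their homeobox partners, had 10.95, 12.24, 13.05 and 13.21 in the sinus and 6.07, 7.56 and 6.31 in the reference. The lowest of its sinus arrays was replicate 1, and the groups did not overlap (5.71, SE 0.87, adjusted p = 0.0017). Kif26b, a kinesin-like protein that acts downstream of Wnt5a and Ror receptors in mouse cells, had 14.32, 14.17, 13.91 and 13.84 in the sinus and 10.06, 11.39 and 7.60 in the reference. The sinus arrays were close together and the reference repeats spread widely (4.38, SE 0.38, adjusted p = 3.65e-05). Evx1, a homeobox gene that lies beside the HoxA cluster with no coding gene starting between it and Hoxa13, had 10.46, 10.95, 9.92 and 10.47 in the sinus. On the reference arrays it had 7.25, 5.65 and 5.94, all under the filter level of 7.39 that stands in for a detection limit, so Evx1 was at least 8.35-fold higher (adjusted p = 0.00588).

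Gpr165, an orphan G protein-coupled receptor, had 11.68, 9.05, 9.52 and 9.39 in the sinus and 5.65, 5.65 and 5.86 in the reference. It was at least 5.74-fold higher (adjusted p = 0.0103), with replicate 1 above the other sinus arrays. Fendrr, a long noncoding RNA whose neighbour in the mouse annotation is Foxf1, had 13.10, 12.25, 10.70 and 10.82 in the sinus and 8.64, 8.98 and 5.65 in the reference (3.96, SE 0.90, adjusted p = 0.0166). The stage 21 sinus arrays were the higher ones for Fendrr. The remaining genes among the 20 largest were Hoxd13, Hoxd10, Isl1, Tbx2, Rspo2, Greb1 and the globin Hbb-y, described below, the zinc finger gene Zfp760 (4.64), Tmem191c (4.32), the granule protein Sytl4 (4.11), Tmem200c (4.04), the anion transporter Slc26a7 (3.99), the helicase Ddx31 (3.92) and E130308A19Rik (3.92). All 20 differences were positive within both title formats, which the choice of genes with no overlap of arrays fixes in advance. Adjusted p ranged from 9.32e-07 (Hoxd13) to 0.0495 (Sytl4), and 17 of the 20 stayed called whichever sinus or reference array was left out; Fendrr, Slc26a7 and Sytl4 did not. For Ddx31 the only other probe set gave -0.21, and for 10 of the 20 genes a reference array lay at the floor.

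**Figure D1:**
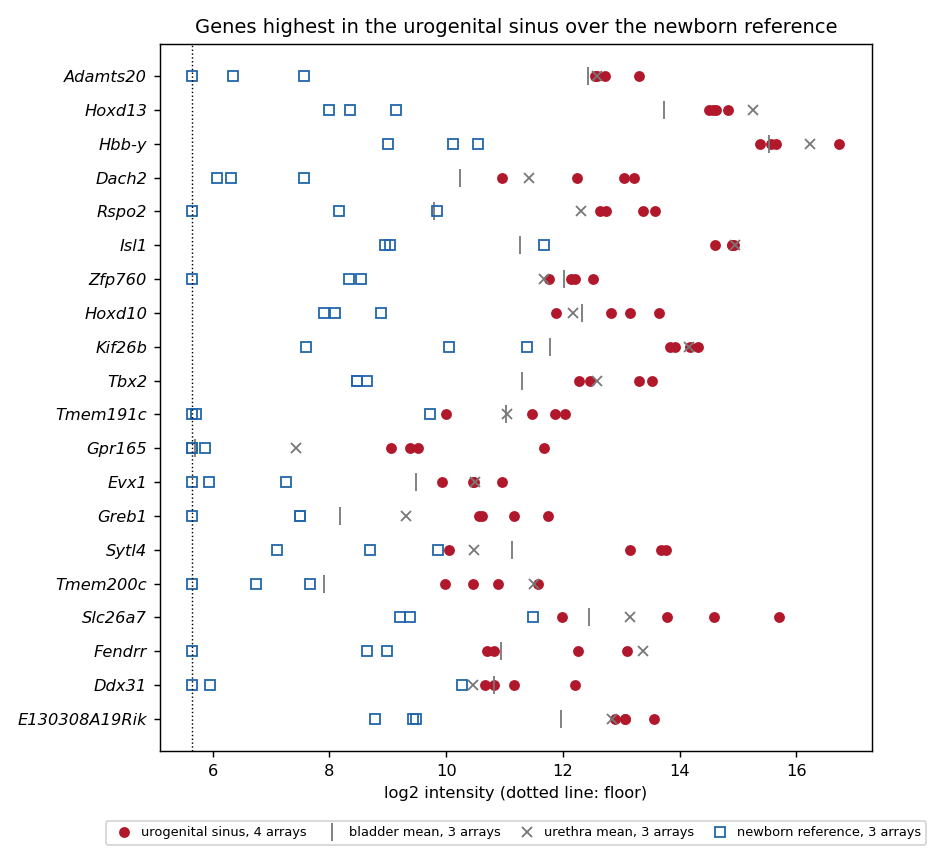
Log2 intensity (horizontal axis) of the 20 genes with the largest differences among those called higher, 1 gene a row. Red circles are the 4 sinus arrays, grey marks the bladder and urethra means, and open blue squares the 3 reference arrays; every red circle lies to the right of every blue square in its row.

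The same 20 genes were looked up in the neighbouring regions, which share the reference arrays and so are given only side by side. The bladder mean lay above every reference array for 17 of the 20 and the urethra mean for all 20. The difference of the sinus from the mean of bladder and urethra ranged from -0.44 (Fendrr) to 3.35 (Gpr165). Of these 20, only Gpr165 was called by limma in that comparison (adjusted p = 0.0412), which called 31 of all genes higher (0.206%) and 19 lower (0.127%). Gpr165 averaged 5.69 in the bladder and 7.43 in the urethra. Actg2 was called lower than in both regions together, with a difference of -4.23 (adjusted p = 0.0216). These counts were not stable: 0 genes were called in either direction without urogenital sinus replicate 6, bladder replicate 2, bladder replicate 6 or urethra replicate 6, and 221 higher and 52 lower without urogenital sinus replicate 1.

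Hox genes encode the transcription factors that mark position along the body axis, and the groups 9 to 13 mark its hind end. Of 13 genes tested in groups 9 to 13, 4 were higher and 1 lower, with a median difference of 1.67. For this and each list below, the share over all genes tested was 4.62% higher and 9.2% lower. Hoxd13, the most posterior gene of its cluster, had 14.51, 14.58, 14.62 and 14.82 in the sinus and 8.0, 9.15 and 8.35 in the reference. The sinus arrays agreed to within 0.31 and lay far above the reference (6.13, SE 0.32, adjusted p = 9.32e-07, 70.3-fold). Hoxd10 had 11.87, 12.82, 13.15 and 13.65 in the sinus and 8.89, 7.91 and 8.09 in the reference (4.58, SE 0.60, adjusted p = 0.00069). Hoxa9 was higher by 2.80 (SE 0.45, adjusted p = 0.00229; its other probe set gave -0.19) and Hoxa10 by 2.28 (SE 0.45, adjusted p = 0.00821).

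Hoxc13, known in the mouse for its role in hair and nail, was the lower one. It was at the floor of 5.65 on all 4 sinus arrays and at 9.12, 8.77 and 8.34 on the reference arrays, at least 2.56-fold lower (adjusted p = 9.65e-06). Hoxb13, a prostate and hindgut gene, was not called: its sinus values of 10.95, 10.07, 7.50 and 8.33 were spread widely, against 7.15, 5.65 and 6.23 in the reference (adjusted p = 0.218). Hoxa13 was not called either (0.65, SE 0.58, adjusted p = 0.559) and its arrays overlapped.

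In the groups 5 to 8, 1 of 7 genes was higher, Hoxd8 at 1.64 (SE 0.41, adjusted p = 0.0253; up to 0.0534 with one array left out), and the list median was 0.05. In the groups 1 to 4, 0 of 8 were called by limma (2 had an unadjusted p under 0.05) and the median was 0.68. Hoxd1, however, had 11.14, 11.10, 10.92 and 11.59 in the sinus and 6.33, 5.65 and 6.80 in the reference. It was not called (4.93, SE 1.55, adjusted p = 0.0657), although its sinus arrays lay close together. Bladder arrays averaged 7.04 and urethra arrays 10.30 for Hoxd1. The spread within each region enters the SE, and the gap between these means does not.

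**Figure D2:**
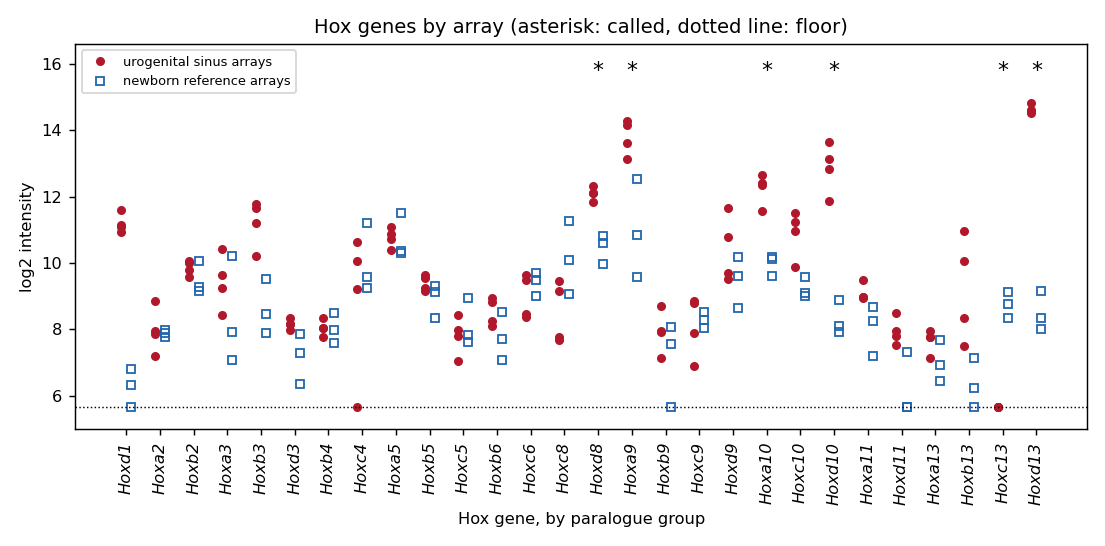
Log2 intensity (vertical axis) of the 28 Hox genes tested, ordered by paralogue group from left to right, with sinus arrays as red circles left of the reference arrays as open blue squares. Asterisks mark the 6 called genes; Hoxd13 at the right stands furthest above the reference and Hoxc13 beside it lies at the floor in the sinus.

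Promoter sequences are given for Hoxd13 and Hoxd10, which had the largest differences among the called genes of the HoxD cluster. They are the 250 bases before the annotated start, from RefSeq on the mouse build GRCm38.p6, written 5′ to 3′ on the gene's strand. Capitals mark CCAAT and TATAAA, each on either strand; in Hoxd13 a TATAAA on the opposite strand overlaps one on the given strand. Within the annotation, 2 coding genes start between Hoxd13 and Hoxd10.
Hoxd13 (chr2:74667975-74668224, + strand): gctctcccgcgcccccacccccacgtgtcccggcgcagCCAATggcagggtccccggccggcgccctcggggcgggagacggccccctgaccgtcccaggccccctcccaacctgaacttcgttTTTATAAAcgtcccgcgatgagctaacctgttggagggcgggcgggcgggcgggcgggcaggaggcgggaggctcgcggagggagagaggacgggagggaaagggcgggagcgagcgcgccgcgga
Hoxd10 (chr2:74691641-74691890, + strand): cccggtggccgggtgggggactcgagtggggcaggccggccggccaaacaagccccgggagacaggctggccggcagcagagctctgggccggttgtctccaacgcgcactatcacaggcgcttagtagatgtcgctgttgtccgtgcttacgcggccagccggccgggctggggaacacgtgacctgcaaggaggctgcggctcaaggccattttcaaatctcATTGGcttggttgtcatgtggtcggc
Hoxd13 held CCAAT 212 bases before the start and a TATAAA match 124 bases before it, and Hoxd10 held CCAAT on the opposite strand 26 bases before the start. CCAAT on either strand occurred in 33.8% of the 32851 promoter windows of this length and TATAAA in 12.4%, so neither match is rare.

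Transcription factors of the genital tubercle and its surrounding mesenchyme were higher in 7 of 25 (all genes 4.62%) and lower in 0. The list median was 1.36. Isl1, a LIM homeobox gene of hindlimb, genital and neural progenitors, had 14.93, 14.90, 14.89 and 14.61 in the sinus and 9.03, 8.96 and 11.67 in the reference. The sinus arrays hardly differed, and reference replicate 3 stood above the other repeats (4.95, SE 0.73, adjusted p = 0.00138). The T-box repressors Tbx2 and Tbx3 were higher by 4.37 (SE 0.51, adjusted p = 0.000315) and 3.73 (SE 0.61, adjusted p = 0.00253). Tbx2 had 12.27, 13.53, 13.30 and 12.47 in the sinus and 8.64, 8.47 and 8.47 in the reference. Hand2, a factor of limb, heart and autonomic neuron development, had 11.44, 13.62, 13.18 and 13.18 in the sinus and 10.26, 9.43 and 7.31 in the reference (3.86, SE 0.72, adjusted p = 0.00559). Replicate 1 was the lowest sinus array for Hand2. Eya1, a transcriptional coactivator and phosphatase, was higher by 3.25 (adjusted p = 0.0223), and the forkhead genes Foxf1 and Foxf2 by 2.94 (adjusted p = 0.0187) and 2.61 (adjusted p = 0.00395).

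Isl1 and Hand2 are also markers of pelvic neurons, and they were the 2 called members of 22 in that list (0 lower, median 1.21). The mean level of the neuron list was 8.30, 12.34, 12.05 and 10.98 on sinus replicates 1, 2, 6 and 7, against 9.89, 9.94 and 9.82 in the reference. The neuron list was below the reference on replicate 1 and above it on the other sinus arrays. The part of neurons in the Isl1 and Hand2 differences was not tested. The glial list had 0 of 9 members called by limma (1 at an unadjusted p under 0.05) and a median of -0.08, which was 0.62 without urogenital sinus replicate 1.

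Shh and Foxa1 were among the called genes of the sinus epithelium. Shh, the secreted ligand of the epithelium, had 15.38, 14.98, 14.61 and 15.42 in the sinus and 12.52, 12.12 and 11.69 in the reference. The groups were well apart (2.99, SE 0.41, adjusted p = 0.000831, 7.95-fold). Ptch1, its receptor and a target of the pathway, had 15.10, 14.86, 15.03 and 15.52 in the sinus and 14.05, 13.72 and 14.16 in the reference (1.15, SE 0.29, adjusted p = 0.0278). One of the other probe sets for Ptch1 gave -0.75. Foxf1, a hedgehog target in mesenchyme, was the third higher gene of the 13 in the hedgehog list, with 0 lower and a median of 0.81. The share higher over all genes was 4.62%. Gli1, also a target, was not called: 10.31, 10.15, 8.81 and 7.97 in the sinus, with replicates 1 and 2 the higher, and 8.40, 8.41 and 8.83 in the reference (adjusted p = 0.669).

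In the list of sinus endoderm and prostate genes, 3 of 17 were higher (all genes 4.62%), 0 lower (all genes 9.2%), and the median was 0.72. Besides Shh these were Foxa1, a pioneer factor of endoderm, at 13.69, 13.59, 12.85 and 13.82 in the sinus and 9.94, 10.37 and 8.95 in the reference (3.73, SE 0.54, adjusted p = 0.00126). Gata3, a factor of urothelium and of the nephric duct, was higher by 1.79 (SE 0.52, adjusted p = 0.0469; 0.0993 with one array left out). Gata2 was higher by 2.83 (SE 0.53, adjusted p = 0.00569), and it and Gata3 were the 2 called of 12 genes in the duct list, which had a median of 0.79. General epithelial genes did not move together: 1 of 19 was higher, Cldn6, a claudin of embryonic epithelium (3.30, SE 0.60, adjusted p = 0.00479), and 1 lower, Krt14, a keratin of stratified skin (-6.47, SE 0.70, adjusted p = 0.000179). Epcam, found in most simple epithelia, was 14.26, 14.22, 14.47 and 14.78 in the sinus and 14.71, 14.68 and 14.97 in the reference, and was not called (adjusted p = 0.643). Epithelial signal was present on every sinus array. In the urothelial list 1 of 10 was called, Krt13, a keratin of stratified epithelia, at least 26.6-fold lower (-5.84, SE 0.67, adjusted p = 0.000255).

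Retinoic acid is made from retinol by Rdh10 and then Aldh1a2, is carried by Crabp2 and acts through receptors such as Rarb, itself a known target. These 4 genes were higher, of 14 in the list (all genes 4.62%), with 0 lower and a median of 0.54. Rarb had 13.53, 13.35, 13.50 and 13.75 in the sinus and 9.49, 10.18 and 9.56 in the reference (3.79, SE 0.46, adjusted p = 0.000384). Aldh1a2 had 12.29, 12.54, 13.01 and 12.92 in the sinus and 9.34, 9.99 and 9.45 in the reference (3.10, SE 0.50, adjusted p = 0.00234). Both genes had tight groups, with every sinus array more than 2 log2 units above every reference array. Rdh10 was higher by 3.48 (SE 0.74, adjusted p = 0.0119), at 13.68, 13.36, 14.63 and 15.18 in the sinus and 10.44, 10.65 and 11.12 in the reference. Sinus replicates 6 and 7 stood above replicates 1 and 2 for Rdh10. Crabp2 was higher by 2.44 (SE 0.40, adjusted p = 0.00279). Stra6, the retinol uptake receptor, missed the threshold at 2.07 (SE 0.63, adjusted p = 0.0563). Aldh1a1, another retinaldehyde dehydrogenase, had -2.36 (SE 1.00, adjusted p = 0.169), and Cyp26b1, an enzyme that degrades retinoic acid, had -0.39 (SE 0.52, adjusted p = 0.713); neither was called.

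The promoters of Rarb and Aldh1a2 are shown as those of a receptor and an enzyme of the pathway that were called together. They are the same 250 bases from RefSeq on GRCm38.p6, with capitals marking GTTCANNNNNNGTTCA or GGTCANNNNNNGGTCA, where N is any base, and CCAAT, each on either strand.
Rarb (chr14:16575477-16575726, - strand): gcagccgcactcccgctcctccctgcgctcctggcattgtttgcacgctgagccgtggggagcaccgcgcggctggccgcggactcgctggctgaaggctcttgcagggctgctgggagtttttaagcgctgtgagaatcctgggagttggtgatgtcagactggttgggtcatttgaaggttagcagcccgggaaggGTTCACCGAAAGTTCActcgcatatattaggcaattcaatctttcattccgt
Aldh1a2 (chr9:71215539-71215788, + strand): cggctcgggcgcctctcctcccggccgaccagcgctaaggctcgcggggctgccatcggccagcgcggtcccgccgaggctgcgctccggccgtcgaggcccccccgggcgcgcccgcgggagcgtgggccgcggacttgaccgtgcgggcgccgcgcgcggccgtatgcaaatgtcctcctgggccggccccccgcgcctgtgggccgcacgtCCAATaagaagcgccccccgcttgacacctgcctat
Rarb held the spaced repeat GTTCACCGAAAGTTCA, the form of direct repeat that retinoic acid receptors are known to bind, starting 52 bases before the start. That pattern occurred in 22 of 32851 windows (0.067%) and the GGTCA form in 25 (0.0761%). Aldh1a2 held neither repeat and held CCAAT 36 bases before the start. The promoter of the globin gene Hbb-y, searched with these 4, held the GGTCA form on the opposite strand starting 133 bases before the start, so a repeat was not limited to genes of the retinoic acid list. A match describes letters in these windows only.

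Wnt signalling genes were higher in 5 of 30 (all genes 4.62%) and lower in 0 (all genes 9.2%), with a median of 1.17. Rspo2, a secreted enhancer of Wnt signalling, had 13.36, 12.64, 12.74 and 13.57 in the sinus and 9.84, 8.17 and 5.65 in the reference. The sinus group was compact while the reference repeats ranged over 4 log2 units (5.19, SE 0.60, adjusted p = 0.000279), and the other probe set for Rspo2 gave -0.05. Wnt5a, a ligand of outgrowth of genital tubercle and limb, had 13.17, 13.12, 13.27 and 13.56 in the sinus and 11.75, 10.61 and 10.15 in the reference (2.44, SE 0.51, adjusted p = 0.0107). Its receptor Ror1 was higher by 2.63 (SE 0.39, adjusted p = 0.00144). The Frizzled receptors Fzd2 and Fzd1 were higher by 2.12 (SE 0.47, adjusted p = 0.0146) and 1.51 (SE 0.32, adjusted p = 0.011). For Wnt5a, Ror1, Fzd1 and Fzd2 every other probe set had the same direction.

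Of 19 BMP pathway genes 3 were higher (all genes 4.62%) and 0 lower, with a median of 0.88. The ligand Bmp4 had 11.96, 12.68, 11.59 and 12.07 in the sinus and 9.05, 9.05 and 10.39 in the reference (2.58, SE 0.55, adjusted p = 0.0113). The groups did not overlap. Bambi, a decoy receptor, was higher by 2.75 (SE 0.67, adjusted p = 0.0223) and Id2, a transcriptional inhibitor and BMP target, by 1.28 (SE 0.30, adjusted p = 0.0183; another probe set gave -0.51). Of 14 FGF pathway genes limma called 0, against 13.8% of all genes in either direction (2 had an unadjusted p under 0.05), with a median of -0.10 that was 0.15 with the arrays centred on their medians. The smallest p in the FGF list belonged to the receptor Fgfr4, at 8.06, 7.85, 8.78 and 7.46 in the sinus and 9.91, 10.23 and 10.29 in the reference. Every sinus array lay below every reference array, without a call (-2.11, SE 0.65, adjusted p = 0.0608). The receptor Fgfr1, next by p, had 1.26 (SE 0.42, adjusted p = 0.0822). In the Notch list limma called 0 of 16, also with 0 at an unadjusted p under 0.05, and the median was 0.26, with the receptor Notch3 at 0.92 (SE 0.55, adjusted p = 0.351).

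**Figure D3:**
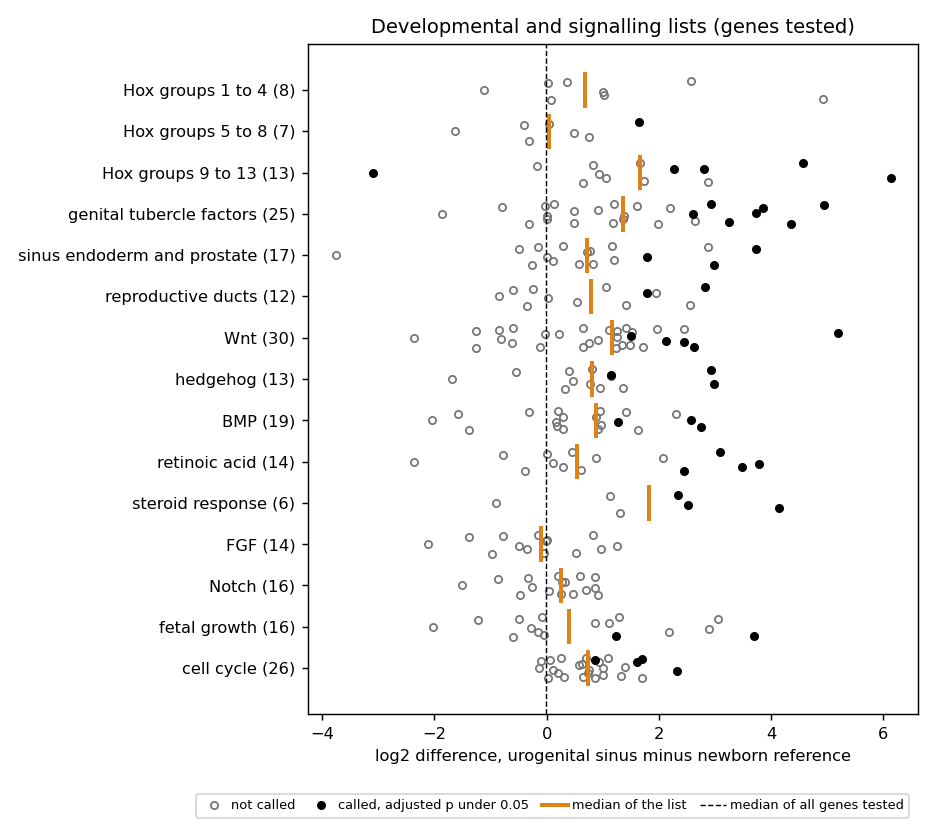
Log2 difference, sinus minus reference (horizontal axis), of each tested gene of 15 developmental lists, with called genes as filled circles, others open, and the list median as an orange bar. The dashed line is the median of all 15019 genes; filled circles lie to its right in every list that has any, apart from Hoxc13.

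**Figure D4:**
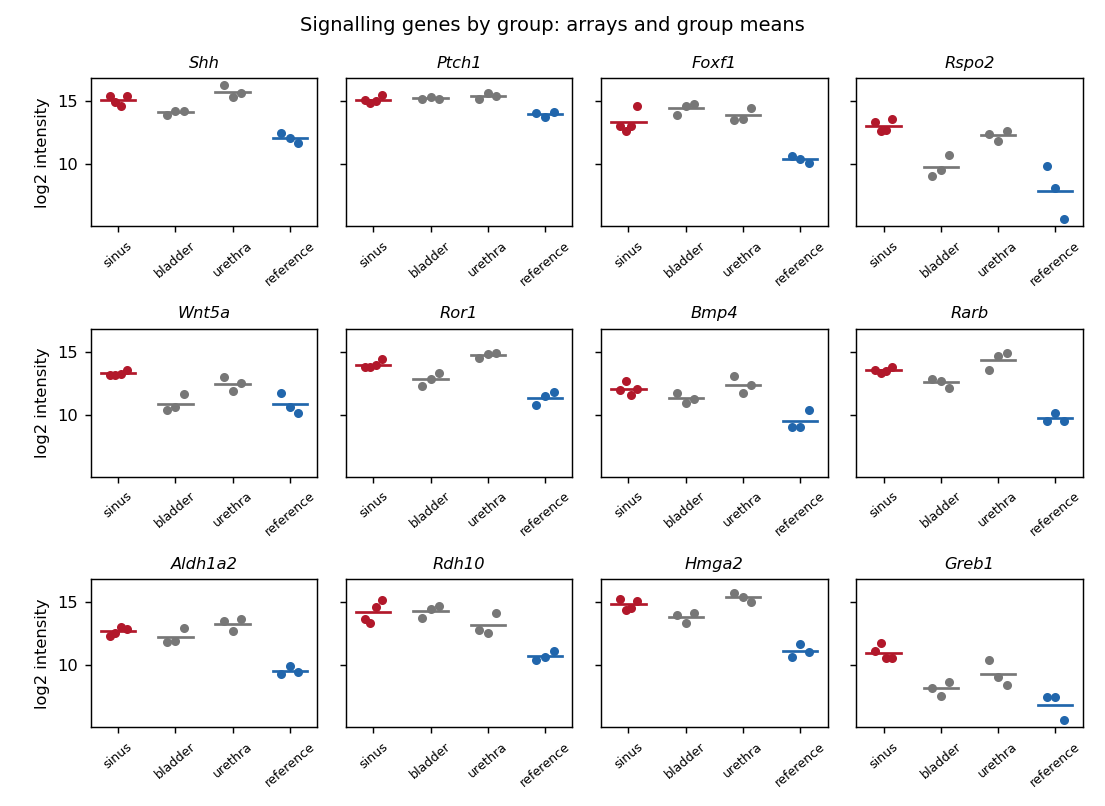
Log2 intensity (vertical axis) of 12 signalling and growth genes on each array of the sinus, bladder, urethra and newborn reference, with group means as lines. In each panel every sinus array lies above every reference array. The bladder mean lies under the sinus mean for all of these genes but Ptch1, Foxf1 and Rdh10.

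Of 6 steroid response genes tested, 3 were higher (all genes 4.62%) and 0 lower, with a median of 1.83. Greb1, known as an oestrogen-induced gene in human breast cancer cells, had 11.16, 11.74, 10.61 and 10.56 in the sinus and 7.49, 7.50 and 5.65 in the reference (4.14, SE 0.75, adjusted p = 0.00485). All sinus arrays of Greb1 stood well above the reference, while its other probe sets gave 0.04 to 2.35. The orphan nuclear receptors Nr2f1 and Nr2f2 were higher by 2.53 (SE 0.51, adjusted p = 0.00837) and 2.34 (SE 0.36, adjusted p = 0.00166). The receptors for oestrogen and progesterone, Esr1 (1.14, SE 1.33, adjusted p = 0.668) and Pgr (1.31, SE 0.64, adjusted p = 0.242), were not called. Esr1 was 8.0 on sinus replicate 1 and 10.82, 11.40 and 11.95 on replicates 2, 6 and 7, against 9.47, 9.50 and 9.24 in the reference.

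Growth and cell cycle genes were called higher in a larger share than all genes tested (4.62%), as counted below without a test of the lists. Hmga2, a chromatin protein of fetal growth that is shut down with age, had 15.25, 14.40, 14.52 and 15.13 in the sinus and 10.67, 11.66 and 11.06 in the reference (3.69, SE 0.43, adjusted p = 0.000293, 12.9-fold). The growth factor receptor Igf1r was higher by 1.24 (adjusted p = 0.0216, up to 0.0514 with one array left out), and its other probe sets gave -0.20 to 2.43. Hmga2 and Igf1r were the 2 called of 16 fetal growth genes, with 0 lower and a median of 0.41. Positive differences were found for 8 of these 16. The difference was positive for 24 of 26 cell cycle genes, against 49.3% of all genes. The list median was 0.75, beside 1.15 in the bladder and 1.17 in the urethra against the same reference. Among the 26, 4 were called higher and 0 lower. They were thymidylate synthase Tyms (at least 2.39-fold, adjusted p = 0.0157), the mitotic kinase Aurkb (1.61, adjusted p = 0.00364), the ribonucleotide reductase subunit Rrm2 (0.86, adjusted p = 0.0414, up to 0.136 with one array left out) and topoisomerase Top2a (1.70, adjusted p = 0.00386). Other probe sets disagreed for Top2a (-0.45) and Tyms (-1.06 at the lowest).

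Of the embryonic globins, 1 was called. Hbb-y, the embryonic beta-like globin, had 16.74, 15.37, 15.65 and 15.57 in the sinus and 10.55, 10.11 and 9.0 in the reference (5.95, SE 0.49, adjusted p = 2.41e-05). Its probe set shares probes with related transcripts, and its other probe sets gave 6.12 and 7.30. Hbb-bh1 and Hba-x, also embryonic globins, were above the reference on every sinus array but not called (adjusted p = 0.313 and 0.235). Both were highest on replicate 1. Hbb-bh1 had 15.04, 10.51, 8.44 and 8.51 in the sinus and 7.05, 5.65 and 5.65 in the reference. Of 10 erythroid genes 2 were lower, Alas2, which starts haem synthesis in red cells (-3.35, SE 0.72, adjusted p = 0.0119), and the red cell membrane protein Rhag (at least 4.61-fold, adjusted p = 0.000949). The mean level of the erythroid list was 10.22 on sinus replicate 1 and 8.31 to 8.66 on the other sinus arrays, against 9.34 to 9.42 in the reference.

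Genes of differentiated organs were lower in the sinus. Liver genes were lower in 18 of 19 with a median of -7.94, skeletal muscle genes in 15 of 19 (median -6.17), gut and pancreas genes in 16 of 17 (-4.98), epidermis and hair genes in 18 of 22 (-4.91) and heart genes in 12 of 15 (-4.22). Bone and cartilage genes were lower in 10 of 17 (-4.05), lung genes in 7 of 8 (-3.94), genes of glucose production and lipid use in 15 of 18 (-3.55) and macrophage and leukocyte genes in 10 of 19 (-2.69). In none of these 9 lists was a member higher. Fgb, the fibrinogen beta chain made by liver, was at the floor on 3 sinus arrays and at 5.89 on replicate 6, against 15.81, 15.83 and 15.91 in the reference, at least 352-fold lower (adjusted p = 4.20e-08). Other examples were the liver fatty acid carrier Fabp1 (at least 411-fold), the gluconeogenic enzyme Pck1 (at least 83.7-fold), brown fat Ucp1 (at least 205-fold), epidermal Krt1 (-7.35), the surfactant protein Sftpc (-7.49) and neutrophil S100a8 (at least 97.9-fold). Adjusted p by limma was at most 0.00105 (Krt1). Perinatal myosin Myh8 was at 7.34, 5.65, 7.39 and 5.65 in the sinus, at or near the floor and the filter level, and at 16.39, 16.23 and 16.75 in the reference (adjusted p = 0.00056).

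Some liver RNA was nevertheless measured in the sinus. Alb, serum albumin, had 10.75, 7.55, 11.18 and 8.06 in the sinus and 16.84, 16.49 and 16.94 in the reference (-7.37, SE 1.28, adjusted p = 0.00381). Replicates 1 and 6 were the higher sinus arrays, and the mean level of the whole liver list was 8.01 and 7.57 on these and 6.51 and 6.38 on replicates 2 and 7, against 14.76 to 15.07 in the reference. The source of this signal was not tested.

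Contractile smooth muscle genes, which the dissection avoided, were called lower in 7 of 16 and higher in 0, with a median of -2.18. Apart from calls, every sinus array lay below every reference array for 10 of the 16 and above for 4. Over all genes tested these shares were 18.7% and 13.2%. Against the same reference the list median was 0.49 in the bladder and 0.53 in the urethra. Casq2, a calcium store protein of heart and smooth muscle, was lower (-5.54, SE 0.68, adjusted p = 0.000429). It was also under the reference in the bladder (-5.88) and urethra (-4.92). Tropomyosin Tpm1 was at -4.15 (SE 0.81, adjusted p = 0.00705), beside -2.57 in the bladder and -3.18 in the urethra. Its other probe sets gave -3.49 to 1.83. Tagln, an actin-binding protein, was at -3.28 (SE 0.86, adjusted p = 0.031, up to 0.0601 with one array left out), beside 0.62 in the bladder and -1.47 in the urethra. Calls for Tpm2 and Smtn, also among the 7, were lost too with one array left out (limma adjusted p up to 0.0669 and 0.0749). Myocd, the master regulator of smooth muscle genes, was not called and stood on the other side: 11.58, 10.57, 11.79 and 14.22 in the sinus and 5.65, 7.90 and 7.93 in the reference (4.88, SE 1.72, adjusted p = 0.0968; the other probe set gave -0.14). Replicate 7 was highest in the sinus for Actg2 and for Myocd, and the mean level of the smooth muscle list was 11.15 there and 9.74 to 10.08 on the other sinus arrays.

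Matrix genes were lower in 4 of 23 and higher in 1, with a median of -1.25. Over all genes tested, 9.2% were lower and 4.62% higher. Postn, a matrix protein of bone lining and valves, was at -3.58 (SE 0.87, adjusted p = 0.0228) and the proteoglycan Bgn at -2.41 (SE 0.51, adjusted p = 0.011). Mfap2, a microfibril protein, was higher by 1.86 (SE 0.35, adjusted p = 0.00564), although its other probe set gave -0.33. Endothelial genes were lower in 1 of 16, the lymphatic receptor Lyve1 (-4.18, SE 0.98, adjusted p = 0.0183), with a median of -0.35. Mesothelial genes were lower in 1 of 10, the membrane protein Gpm6a (-6.02, SE 1.13, adjusted p = 0.00577), and the median was -0.44. The endothelial and mesothelial counts lay near the share of all genes called lower. Among 19 genes of the central nervous system 6 were lower and 1 higher, the astrocyte filament gene Gfap, which was at least 1.54-fold higher (adjusted p = 0.0278, up to 0.0773 with one array left out), with a list median of -1.72. Kidney genes were lower in 4 of 10 (median -1.97), lymphocyte genes in 3 of 10 (-1.25) and gonad and adrenal genes in 1 of 6 (-0.92). Stress genes of the immediate early and heat shock kinds were lower in 4 of 14 (-1.29). In the kidney, lymphocyte, gonad and stress lists 0 members were called higher.

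**Figure D5:**
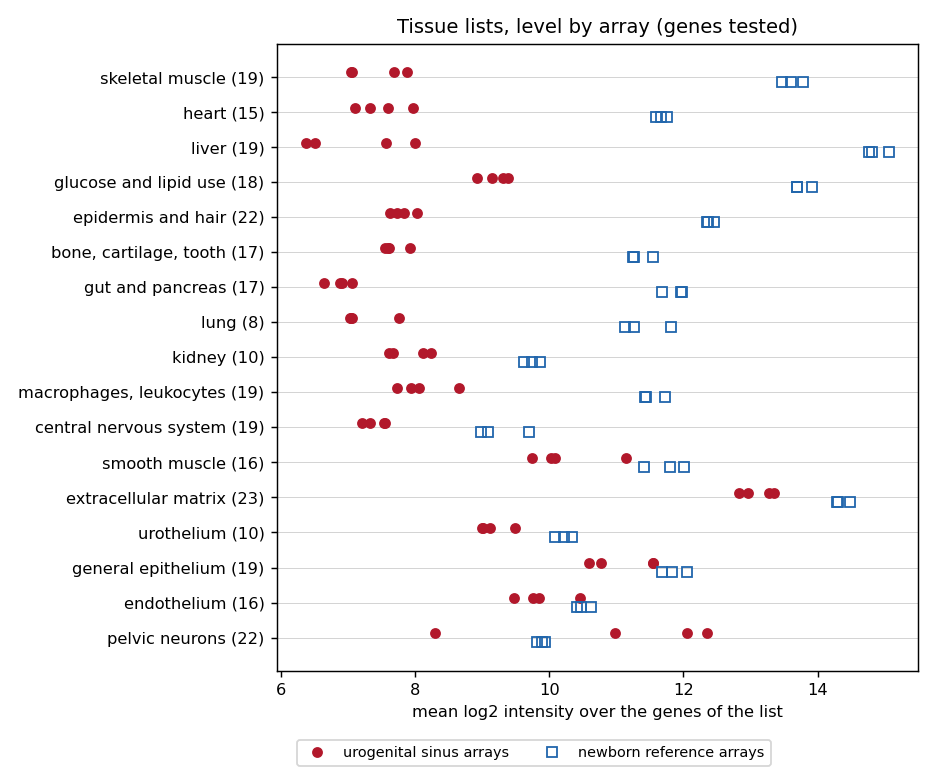
Mean log2 intensity over the tested genes of 17 tissue lists (horizontal axis), 1 list a row, with the 4 sinus arrays as red circles above the 3 reference arrays as open blue squares. Muscle, liver, skin and gut lists are far apart, endothelium overlaps, and the pelvic neuron list puts 1 sinus array (8.30) below the reference and the others above it.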

How the data were processed

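Per the labels' protocols, RNA went through 2 rounds of amplification before biotin labelling and hybridization to Affymetrix MOE430 arrays. The values are linear intensity per probe set in a table deposited by the authors, in which every array has the same 2% trimmed mean. GCOS is named without a version, per the submitters' processing notes; how scans became values is not given in the sources at hand. Detection calls were not used here, and no scan dates were at hand.

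Intensity was floored at the 20th percentile (50.23), put on the log2 scale, and kept where at least 3 arrays exceeded the 40th percentile (167.76), which left 33125 probe sets. Each of 15019 genes was represented by its brightest probe set on average, named through the platform annotation (34945 probe sets with 1 symbol, 932 with several, 9160 with none, the last 2 kinds left unnamed). Amplification favours the 3' end of transcripts, so probe sets of 1 gene can differ.

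The test was limma 3.58.1 in R 4.3.3 (lmFit, eBayes with an intensity trend) on 4 group means, with the 10 region arrays and the mean of the reference arrays as 1 sample, two-sided, with Benjamini-Hochberg adjustment over all genes. The spread thus comes from the region arrays, and the reference's own spread does not enter. Whether each array had an embryo of its own is not labelled. The p-values therefore reflect only how far these arrays differ, and their number limits precision. "At least" folds set the mean of the high group against the filter level where all arrays of the low group lie under it. They allow for the unknown level of the low group, but not for the spread of the high group.

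Genes are named by a rule: Actg2, up to 20 higher and 10 lower called genes with the largest differences and no overlap of arrays, then the called members with the smallest p of each list (at most 6 a direction), and uncalled list members given as such. Lists are described by counts and medians, with no test; of 647 list genes 556 were tested. The members and the lists were chosen with earlier results of these data known. Promoter windows were found for 19 of the 24 genes looked up. Motif positions, on both strands, were looked up only for Hoxd13, Hoxd10, Rarb, Aldh1a2 and Hbb-y. Alternatives covered scaling, floor, filter, probe set choice, limma settings, blocks and arrays left out.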

Additional observations from a re-analysis of the deposited data

Results flagged for a closer look

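Among 151 sets of the 4 sinus values looked at (the genes named and the means of the 38 lists), 11 had an array far from the others by the gap to the nearest one; chance gives about 1 in 20. For Fgb, Fabp1 and Ucp1 the other 3 arrays are at the floor, so that rate does not apply to them. Urogenital sinus replicate 1 was that array in 7 of the 11. It was low for Sytl4 (10.05, the others up to 13.77), for Nr2f1 (11.56) and for the mean of the glial list (8.73, the others up to 10.73). It was high for Notch3 (12.95), for Fabp1 (6.87, the others at the floor) and for the means of the bone and cartilage list (7.92) and the lung list (7.77). Replicate 6 was high for Fgb (5.89) and Ucp1 (6.43), the others being at the floor. Replicate 7 was low for Isl1 (14.61, the others from 14.89) and high for Dcc (13.12, a gene named below under other observations). In all these genes except Notch3, limma called the sinus different from the reference.

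A difference between the sinus and the mean of bladder and urethra, tested in the same limma fit, was found for 3 of the genes named: Actg2 (-4.23), Gpr165 (3.35) and Dcc (2.04). Dcc averaged 12.46 in the sinus, 9.02 in the bladder and 11.81 in the urethra (adjusted p = 0.0295).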

How the results depend on the processing

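The 694 higher and 1382 lower calls moved with scaling and fit. Higher calls numbered 898 with quantile normalization and 408 with arrays centred on their medians, which shifts the median difference of all genes to 0.09 and 0.24. With array weights there were 2450 higher and 2820 lower, with the sinus and reference arrays only 189 and 805, and with the reference arrays as separate samples 1808 and 2519. Theiler stage as a covariate gave 1042 higher. Title style was fitted with the reference arrays as separate samples, unlike the main fit. As a fixed block it gave 1265 higher and 2092 lower. As a random block (consensus correlation -0.006) it gave 1808 and 2516, beside 1808 and 2519 for separate reference arrays with no block. Leaving out 1 array gave 451 to 1058 higher and 1190 to 1673 lower; leaving out sinus replicate 1 and reference replicate 3 together, a setting chosen after seeing the data, gave 819 and 1588. The cause of these shifts was not tested. Of 174 named genes called, 151 stayed called whichever sinus or reference array was left out. Only Ddx31 (-0.21) and Top2a (-0.45) changed direction, both with no shared-probe sets.

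No paired analysis was possible because the reference arrays share no title number with the sinus arrays. Title number as a random replicate block over the region arrays gave 670 higher and 1332 lower (consensus correlation 0.27). For the sinus against bladder and urethra (31 higher, 19 lower), that block gave 121 and 53, and title number as a fixed replicate block 1 and 2. The same comparison gave 5 and 12 with quantile normalization, 5 higher with arrays centred on their medians, 52 and 29 with no floor, 20 higher with the floor at the 40th percentile, 12 and 10 with no filter, 52 higher with the mean of the probe sets, 1093 and 497 with array weights and 65 and 30 with robust eBayes. It gave 84 and 39 with the reference arrays as separate samples. With the reference arrays still separate, title style gave 1 and 4 as a fixed block and 85 and 39 as a random block. Leaving out 1 array gave 0 to 221 higher and 0 to 52 lower, and leaving out sinus replicate 1 with reference replicate 3 gave 221 and 52. List medians near 0 turned with the setting: FGF -0.10 (0.15 with median centring), urothelium -0.21 (0.05 with median centring), Hox groups 5 to 8 0.05 (-0.32 with no filter) and fetal growth 0.41 (-0.05 with no filter). Values near the floor have no order, and signal over background limits the size of every difference with a group there.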

Other observations

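Gene families defined by the form of their symbols were counted after the values had been seen, so these are descriptions of the sinus against the newborn reference with no test of the family. The background is 4.62% of all genes higher and 9.2% lower. Among the homeobox, coactivator and cofactor genes of the Six4, Eya1 and Dach2 families, which act together in organ development, 6 of 10 were higher and 0 lower. Besides Dach2 and Eya1 they were Six4 (3.60, SE 0.60, adjusted p = 0.00303), Eya4 (2.83, adjusted p = 0.0438), Dach1 (2.53, SE 0.44, adjusted p = 0.0039) and Six5 (2.47, adjusted p = 0.0183). Six4 had 11.93, 11.92, 12.35 and 13.38 in the sinus and 7.17, 9.74 and 9.47 in the reference. Among Meis and Pbx genes, cofactors of Hox proteins, 3 of 5 were higher and 0 lower: Pbx2 (3.34, adjusted p = 0.0329), Meis1 (2.69, SE 0.34, adjusted p = 0.000499) and Meis2 (2.34, SE 0.32, adjusted p = 0.00094). Meis1 had 13.07, 13.12, 13.48 and 13.59 in the sinus and 11.21, 10.51 and 10.16 in the reference, with no overlap. Calls for Eya4, Six5 and Pbx2 were lost when one sinus or reference array was left out.

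Guidance genes, which steer axons and migrating cells, were higher in 5 of 16 netrin, Slit, Robo, Unc5 and Dcc family members and lower in 0. They were the receptor Dcc (3.79, SE 0.44, adjusted p = 0.000261), the ligand Slit2 (3.24, SE 0.36, adjusted p = 0.000196), Unc5c (2.53), Robo1 (2.09) and Unc5b (1.73). Slit2 had 14.85, 13.84, 14.10 and 14.55 in the sinus and 12.22, 11.77 and 9.28 in the reference. Eph receptors and ephrins were higher in 4 of 19 and lower in 0, namely Epha4 (3.48, SE 0.47, adjusted p = 0.000771), Epha7 (2.99), Efnb2 (2.27) and Efna5 (1.98). Calls for Unc5b, Unc5c and Efna5 were lost when one array was left out, and one other probe set of Robo1 gave -0.92.

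The largest family by number was that of zinc finger genes with Zfp symbols: 54 of 315 were higher (17.1%) and 2 lower (0.635%), with a median of 0.92. Behind Zfp760 came Zfp937, at least 4.87-fold higher (adjusted p = 0.00199). The lower ones were Zfp36, an RNA-binding protein that destabilizes messages (-1.57), and Zfp750, a factor of epidermal differentiation (-3.62). Host genes of small nucleolar RNAs were higher in 5 of 14 and lower in 1, led by Snhg16 (2.44, adjusted p = 0.00312), with Snhg11 at -2.13. The lower calls for Zfp36, Zfp750 and Snhg11 were each lost when one array was left out (adjusted p up to 0.0538, 0.0949 and 0.0759). Adamts proteases were higher in 2 of 14, Adamts20 and Adamts6 (at least 3.48-fold, adjusted p = 0.000771). T-box genes were higher in 2 of 11 and lower in 1, Tbx15, a factor of skin and skeletal development, at the floor on all sinus arrays and at 10.86 to 11.62 in the reference. In the other direction, keratins were lower in 28 of 43 (65.1%) and higher in 0, and cytochrome P450 genes lower in 27 of 61 (44.3%) and higher in 1.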
